A study of Mus musculus with 8 samples.

Results

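The BCL2 family was examined here through 10 genes: Bcl2, Bcl2l1, Bcl2l2, Mcl1, Bcl2l11, Bid, Bad, Bak1, Bmf and Hrk. They were chosen by name, but with earlier results of these data known. They are members of the family other than its best known p53 targets. The annotation of the bead array gives them 25 probes among 25662. Of these probes 17, from 9 of the 10 genes, were detected on at least 4 of the 8 arrays and were tested. Bmf was the gene with no tested probe.

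Total RNA came from neural stem and progenitor cells (NPCs) of E14.5 mouse embryos, whose strain was a mix of C57BL/6 and 129S1/SvlmJ. The Prmt5-depleted cells had the genotype Prmt5F/FNes, a floxed Prmt5 gene with Cre recombinase under Nestin control, which acts in neural progenitors. The control cells were Prmt5F/F and carried the floxed gene too, with no Cre named, so effects of Cre and of Prmt5 loss cannot be told apart. Each genotype was hybridized to 4 arrays. Whether the 4 came from different embryos or cultures is not in the labels. The p-values thus reflect the scatter among these arrays alone, which may be technical.

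BCL2 family proteins decide whether the outer membrane of the mitochondrion stays intact. Survival members such as BCL-2, BCL-XL and MCL-1 bind and hold back the effectors BAX and BAK, which otherwise form pores that release cytochrome c and start the caspase cascade. BH3-only proteins such as BIM, BID, BAD, BMF and HRK sense stress, loss of growth factors or signals from death receptors, and they act by binding the survival proteins or by activating the effectors. In the developing nervous system this balance sets how many progenitors and newborn neurons die.

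Genes of both sides of the family were higher in Prmt5-depleted cells. The survival genes Bcl2l1 and Mcl1 and the BH3-only genes Bid, Hrk and Bcl2l11 rose, by 1.56-fold to 2.57-fold at the brightest probe of each gene. Bcl2, Bcl2l2, Bak1 and Bad did not pass the test at theirs. Of the 9 genes tested, 5 were therefore called higher and 0 lower at an adjusted p under 0.05, where 23.7% of all 9001 genes tested were called higher and 24.1% lower (47.8% in either direction). The median log2 difference of the 9 genes was 0.64, against -0.04 for all genes. In bulk RNA a changed share of a cell type and a changed amount of RNA per cell cannot be told apart.

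By role, 2 of 4 survival genes and 3 of 4 tested BH3-only genes were higher, and the only effector, Bak1, was not called. Whether the roles differ was not tested. At probe level 8 of the 17 tested probes were called higher and 1 lower, where 22.1% of all 13196 tested probes were higher and 24.7% lower (46.7% in either direction). The 1 lower probe belongs to Bcl2. In 5 genes and 7 probes of the family the genotypes did not overlap, all of them higher in Prmt5-depleted cells. Separate genotypes were seen in 44.8% of all genes (22.6% higher) and 43.1% of all probes (20.9% higher).

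**Figure D1:**
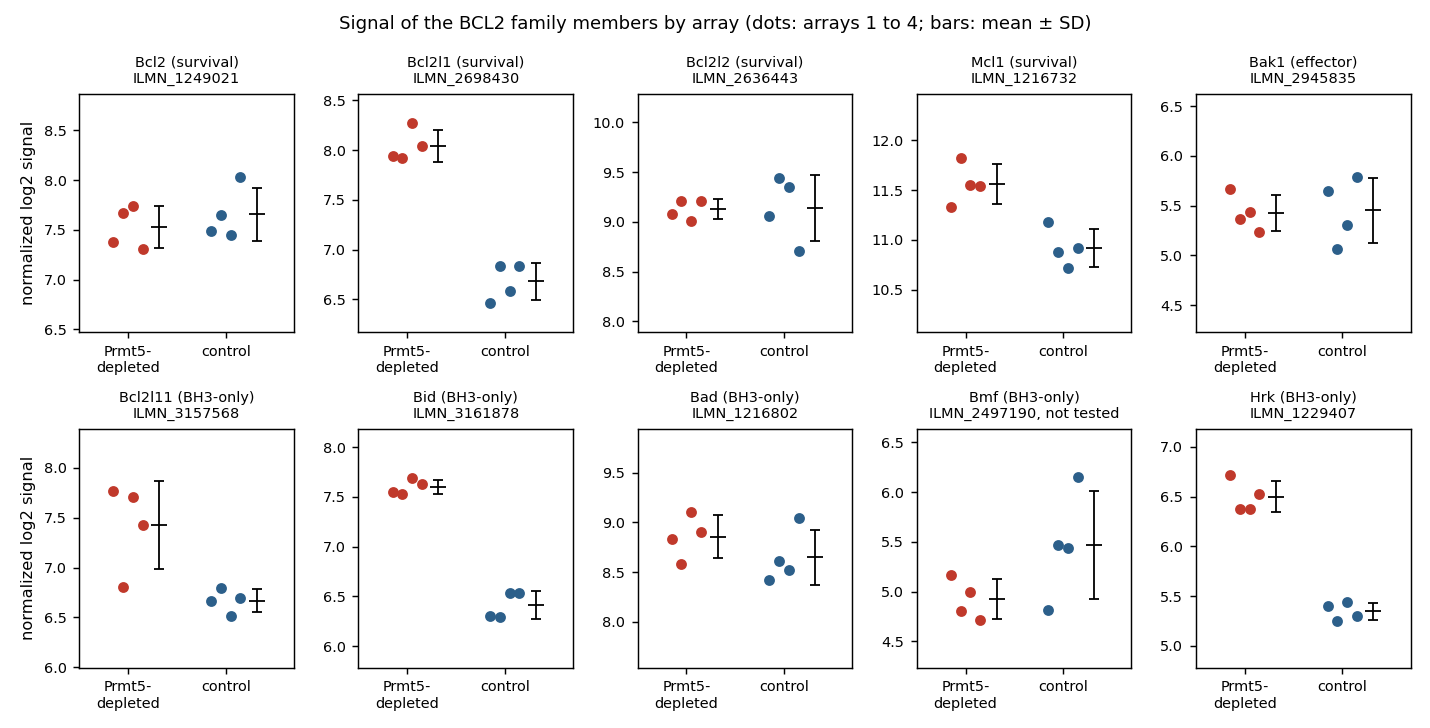
Normalized log2 signal (y axis) of each member's brightest tested probe on the 4 Prmt5-depleted arrays (red, left) and the 4 control arrays (blue, right), with mean ± SD beside the dots; Bmf is drawn but was not tested. Every panel spans the same log2 range, and the genotypes separate for Bcl2l1, Mcl1, Bcl2l11, Bid and Hrk.

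Prmt5 itself was lower in the depleted cells at all 3 of its probes. At the brightest, ILMN_2983093, it read 7.39, 7.84, 7.32 and 8.21 on Prmt5-depleted arrays 1 to 4 and 10.02, 10.48, 10.54 and 10.52 on control arrays 1 to 4 (normalized log2 signal). The log2 difference was -2.70, and no Prmt5-depleted array came near a control array. The position of these probes against the floxed exons is unknown here. Across all probes the arrays separated by genotype on the first principal component (74.1% of the variance). On the second (10.5%), control 4 and Prmt5-depleted 1 and 3 stood apart from the other 5 arrays, and calls named here that end without these 3 are given with that value. Raw array means lay between 449 and 598 intensity units, with 12518 to 13602 probes detected per array. With 4 arrays a genotype, their number limits the precision.

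Bcl2l1, whose main product BCL-XL protects immature neurons from death, had the largest rise among the members when each gene was read at its brightest probe. With the mean of its tested probes the log2 difference of Bcl2l1 was 0.95, below the 1.16 of Hrk. At its brightest probe, ILMN_2698430, the log2 signal was 7.94, 7.92, 8.27 and 8.04 on Prmt5-depleted arrays 1 to 4, against 6.47, 6.84, 6.58 and 6.83 on control arrays 1 to 4. All depleted arrays lay more than 1 log2 unit above the highest control array. The means were 8.04 ± 0.16 in Prmt5-depleted and 6.68 ± 0.19 in control cells (SD, n = 4 each), a rise of 2.57-fold (log2 difference 1.36, standard error 0.13, adjusted p = 8.50e-06). Only 5.33% of all genes tested had a larger rise.

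The other probes of Bcl2l1 moved the same way with smaller differences. ILMN_2647885 read 6.39, 6.42, 6.81 and 6.68 in Prmt5-depleted cells and 5.87, 5.44, 5.69 and 5.29 in control cells, where 3 of 4 arrays detected it. The genotypes were again separate, and the rise was 2.01-fold (adjusted p = 0.000257). ILMN_2742557 read 6.75, 6.20, 6.57 and 6.17 in Prmt5-depleted cells and 5.76, 6.37, 5.94 and 5.69 in control cells. Here control 2 lay above 2 of the depleted arrays, and the rise of 1.40-fold was called only narrowly (adjusted p = 0.0451). That call was lost in 12 of 17 alternative settings, among them without Prmt5-depleted 1 or 3 (adjusted p = 0.126 and 0.107) and without control 1, 3 or 4 (adjusted p = 0.108, 0.0818 and 0.105). Also, without the 3 arrays that stood apart the log2 difference was 0.16 in place of 0.48 (adjusted p = 0.511). Bcl2l1 transcripts are also spliced to a shorter form, BCL-XS, that promotes death. All 3 probes are annotated to the same transcript and do not tell the forms apart here.

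Mcl1 encodes a short-lived survival protein that neural progenitors of the mouse need to stay alive. Its single probe, ILMN_1216732, read 11.33, 11.83, 11.55 and 11.54 on Prmt5-depleted arrays and 11.18, 10.88, 10.71 and 10.92 on control arrays. The genotypes did not overlap, although Prmt5-depleted 1 lay close above control 1. Means of 11.56 ± 0.20 in Prmt5-depleted and 10.92 ± 0.19 in control cells (SD, n = 4 each) gave a rise of 1.56-fold (adjusted p = 0.00303). The signal was far above background on every array, and under 20 alternative settings the log2 difference stayed between 0.56 and 0.74, with the call kept.

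Bcl2l2 encodes BCL-w, a survival protein of neurons. Its brightest probe, ILMN_2636443, read 9.08, 9.21, 9.01 and 9.21 in Prmt5-depleted cells and 9.05, 9.44, 9.35 and 8.71 in control cells. The control arrays enclosed all depleted arrays. The log2 difference was -0.01, with a 95% interval of -0.36 to 0.34 (adjusted p = 0.957). A second tested probe, ILMN_2936517, had a log2 difference of 0.11 (interval -0.28 to 0.51). The third was detected on 1 array of each genotype and was not tested.

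Bcl2, the founding survival gene, is covered by 8 probes, 5 annotated to the RefSeq transcript NM_009741 and 3 to NM_177410. The tested probes of the first transcript did not pass the test. Of these, ILMN_1249021 read 7.38, 7.67, 7.74 and 7.31 in Prmt5-depleted cells and 7.49, 7.65, 7.45 and 8.03 in control cells, and the genotypes overlapped (log2 difference -0.13, interval -0.48 to 0.22, adjusted p = 0.533). ILMN_1249366 and ILMN_2706514 had log2 differences of -0.12 and 0.14 (adjusted p = 0.485 and 0.375). The last probes of this transcript, ILMN_1243345 and ILMN_2597272, were detected on none of the 8 arrays and were not tested.

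The 3 probes annotated to NM_177410 all had lower mean signal in Prmt5-depleted cells, near the limit of detection. ILMN_2682162 read 5.76, 5.70, 5.14 and 5.68 on Prmt5-depleted arrays, of which 3 detected it, and 6.50, 5.75, 6.05 and 5.94 on control arrays, which all detected it. Control 2 lay below Prmt5-depleted 1, and the fall of 1.40-fold passed the test narrowly (log2 difference -0.49, standard error 0.18, adjusted p = 0.0473). This call was lost in 13 of 17 alternative settings, among them without control 1 (log2 difference -0.35, adjusted p = 0.128) and without Prmt5-depleted 3 (log2 difference -0.34, adjusted p = 0.138). The call was also lost without Prmt5-depleted 2 or 4 and without control 3 or 4 (adjusted p = 0.0622, 0.0647, 0.0825 and 0.0528). Without the 3 arrays that stood apart the log2 difference was -0.41 (adjusted p = 0.146). ILMN_1215796 was detected on 0 depleted and 3 control arrays, and ILMN_2597567 on 0 depleted and 2 control arrays. Set against the lowest detected signal of each depleted array, their means were 1.44-fold and 1.12-fold lower in Prmt5-depleted cells. With the values as measured, the intervals of the log2 difference were -1.29 to 0.03 and -0.75 to 0.11, and both include no change. Neither probe was tested, and in both the genotypes overlapped. The difference between the transcripts was not tested, and the annotation does not say which parts of them the probes match.

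**Figure D2:**
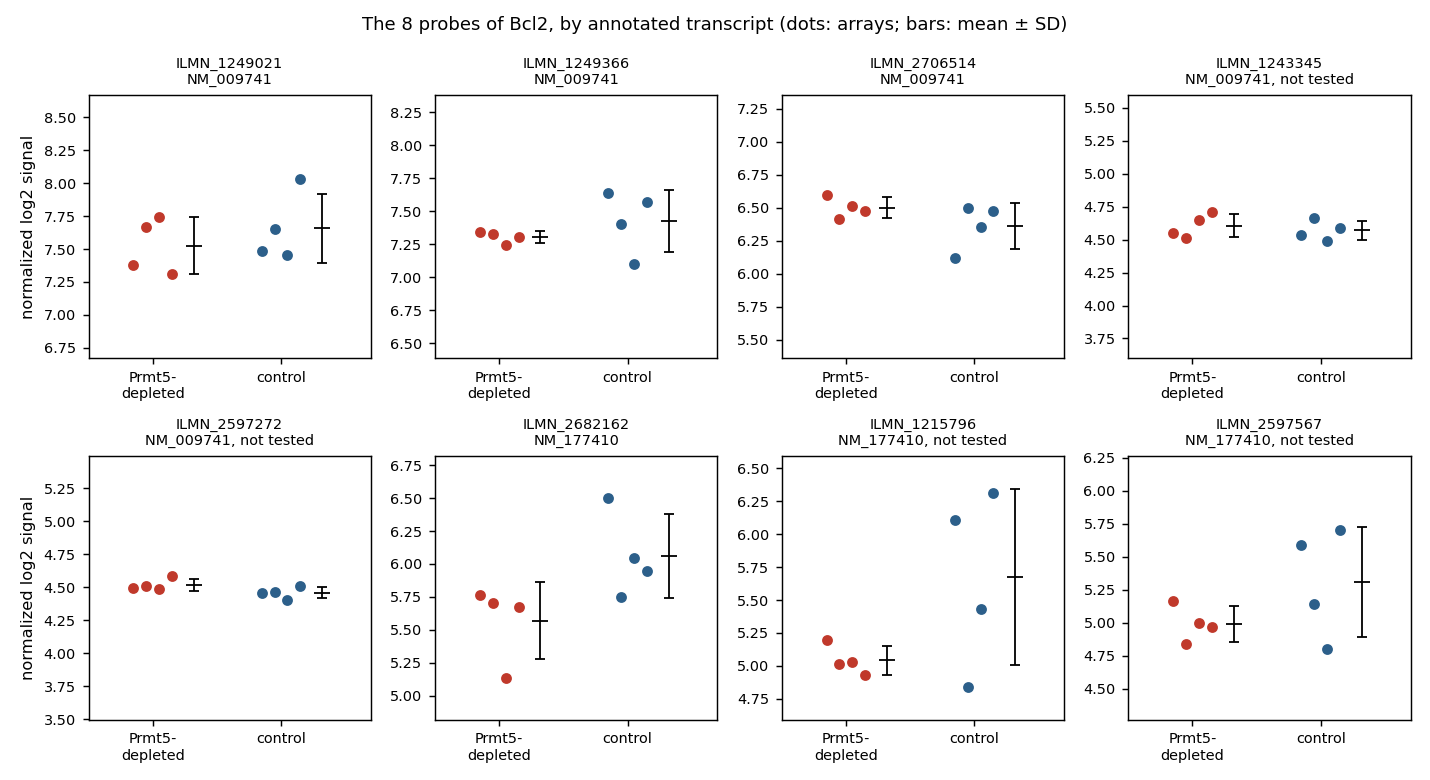
Normalized log2 signal (y axis) of the 8 probes of Bcl2 on Prmt5-depleted arrays (red, left) and control arrays (blue, right), with mean ± SD, each panel named by probe and annotated RefSeq transcript. The 3 panels of NM_177410 have lower means in Prmt5-depleted cells, and the 5 of NM_009741 have log2 differences between -0.13 and 0.14.

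Bak1 encodes BAK, an effector that forms the pore in the mitochondrial membrane. Its probe, ILMN_2945835, read 5.67, 5.36, 5.44 and 5.23 in Prmt5-depleted cells and 5.65, 5.07, 5.30 and 5.79 in control cells, where 3 of 4 arrays detected it. The depleted arrays lay within the control range. The log2 difference was -0.03 with an interval of -0.39 to 0.34 (adjusted p = 0.91), at a signal close to background on all arrays. No probe carries the name Bax, the other effector, in the annotation used here.

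Among the BH3-only genes, Bid links death receptors to the mitochondrion, as caspase 8 cleaves its protein into the active form. At ILMN_3161878 it read 7.55, 7.53, 7.69 and 7.62 in Prmt5-depleted cells, against 6.30, 6.29, 6.54 and 6.53 in control cells. The arrays of each genotype lay close together and about 1 log2 unit apart from the other genotype. The rise was 2.27-fold (log2 difference 1.18, standard error 0.12, adjusted p = 7.90e-06), and 6.89% of all genes rose more. The second probe of Bid, ILMN_2757287, did not follow. It read 5.42, 4.70, 5.13 and 5.36 in Prmt5-depleted cells, detected on 2 of 4 arrays, and 5.71, 5.08, 5.68 and 5.49 in control cells, detected on 3 of 4. The genotypes overlapped, and the log2 difference was -0.34 (interval -0.75 to 0.07, adjusted p = 0.159). Averaged over both probes the rise of Bid was 0.42 on the log2 scale (adjusted p = 0.0208). Both probes are annotated to the same transcript, and the difference between them was not tested.

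Hrk, also called DP5, is induced in rodent neurons deprived of trophic factors, through JNK signalling. Its probe, ILMN_1229407, read 6.72, 6.38, 6.38 and 6.53 in Prmt5-depleted cells and 5.40, 5.25, 5.44 and 5.30 in control cells. All 4 depleted arrays and 3 of 4 control arrays detected it, and the genotypes were well apart. The rise was 2.23-fold (log2 difference 1.16, standard error 0.12, adjusted p = 1.28e-05). As the control signal lay near background, the estimate depends on the background step: it was 0.59 on the log2 scale in the authors' normalized matrix, taken without any further background correction, and 0.74 with a larger offset. The call held in both (adjusted p = 9.63e-05 and 3.86e-05).

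Bcl2l11 encodes BIM, a BH3-only protein that binds every survival member and is under control of FOXO factors and of kinases. Its brightest probe, ILMN_3157568, read 7.77, 6.80, 7.70 and 7.43 in Prmt5-depleted cells, against 6.66, 6.80, 6.52 and 6.69 in control cells. Prmt5-depleted 2 stood at the same level as control 2, so that the genotypes were only just separate, and the other depleted arrays were clearly higher. The rise was 1.69-fold (log2 difference 0.76, standard error 0.19, adjusted p = 0.00677). Without the 3 arrays that stood apart the log2 difference was 0.45 (adjusted p = 0.0945), which ended the call. A second probe, ILMN_2590638, annotated to another transcript, read 6.53, 6.14, 6.66 and 6.71 in Prmt5-depleted cells and 5.71, 5.99, 5.96 and 5.73 in control cells. The genotypes were separate, the rise was 1.58-fold (adjusted p = 0.00307), and this call held without the 3 arrays (log2 difference 0.53, adjusted p = 0.0487). The last probes of Bcl2l11, ILMN_1229255 and ILMN_3078327, were detected on no array.

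Bad, whose protein is kept inactive by phosphorylation and 14-3-3 proteins, read 8.84, 8.59, 9.10 and 8.90 in Prmt5-depleted cells and 8.42, 8.61, 8.53 and 9.05 in control cells at ILMN_1216802. The genotypes overlapped, as control 2 and 4 each lay above 1 or more depleted arrays, and the log2 difference of 0.21 (interval -0.15 to 0.56) did not pass the test (adjusted p = 0.32). Bmf, whose protein is held at the cytoskeleton by a dynein light chain, was detected on 0 of 4 Prmt5-depleted and 3 of 4 control arrays. ILMN_2497190 lay between 4.72 and 5.17 in Prmt5-depleted cells and read 4.82, 5.47, 5.44 and 6.15 in control cells. Bmf was not well above background in depleted cells. Set against the lowest detected signal of each depleted array, its mean was 1.25-fold lower there. With the values as measured, the interval of the log2 difference was -1.11 to 0.02, which includes no change. The genotypes overlapped, and Bmf was not tested.

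**Figure D3:**
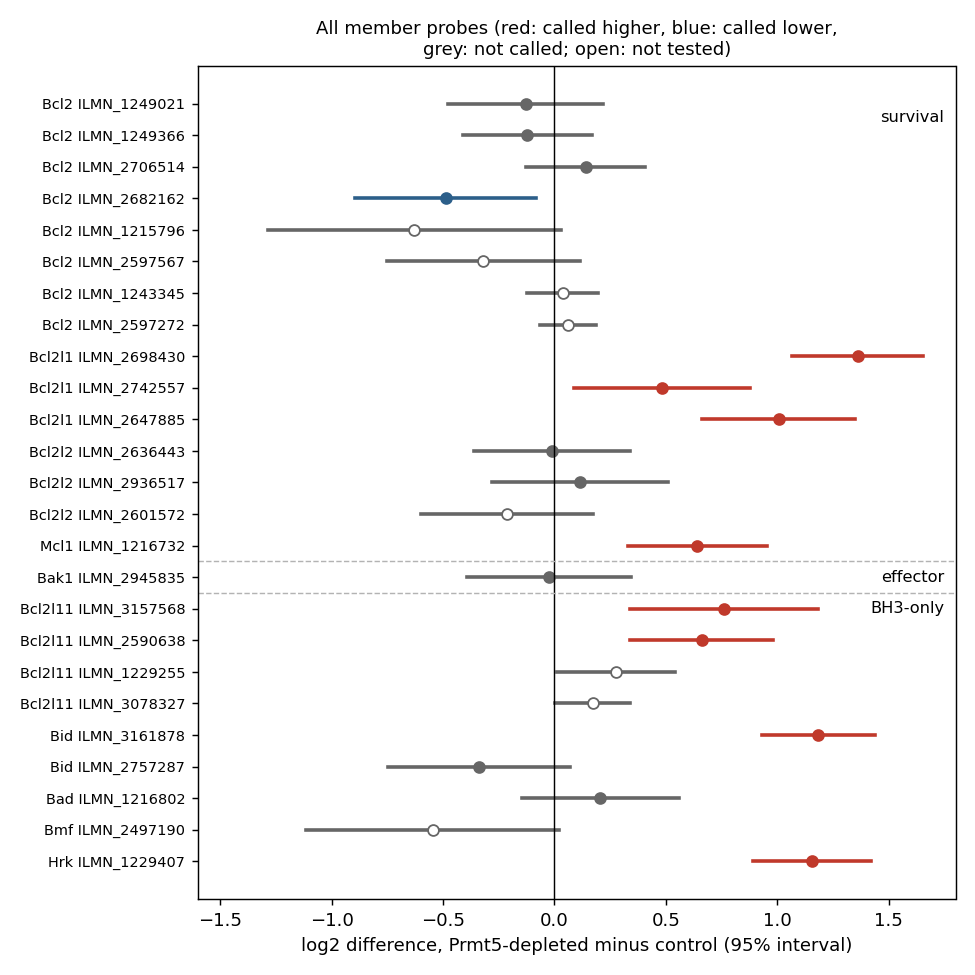
Log2 difference, Prmt5-depleted minus control, with its 95% interval (x axis) for all 25 member probes (y axis), grouped by role. Probes called higher are red, the 1 called lower is blue, those not called are grey and those not tested are open; the 8 red probes belong to Bcl2l1, Mcl1, Bcl2l11, Bid and Hrk.

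The called members were placed against all genes. Rises larger than those of Bid and Hrk were found in 6.89% and 7.20% of the genes, larger than that of Bcl2l11 in 12.8% and larger than that of Mcl1 in 15.7%. Bcl2, Bcl2l2 and Bak1 lay near the middle, where 42.8%, 52.4% and 51.2% of the genes had a lower value.

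**Figure D4:**
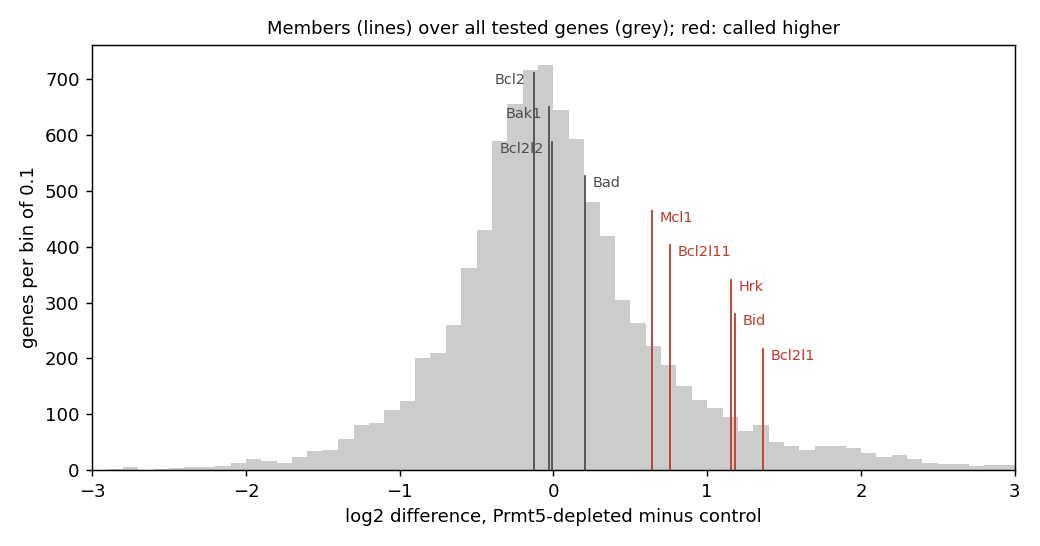
Number of genes (y axis) in bins of log2 difference, Prmt5-depleted minus control (x axis), over the 9001 genes tested (grey), with lines at the 9 tested members; the few genes beyond the ends of the axis are not drawn. The 5 members called higher (red) lie between 0.64 and 1.36, and Bcl2, Bak1, Bcl2l2 and Bad (dark grey) between -0.13 and 0.21.

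The DNA before the start is shown for the 3 members called higher that have 1 annotated start each. It is also shown for the upstream start of Bcl2l11, known as a FOXO target. Whether the rises of these genes share a cause was not tested. Sequences are from RefSeq promoters of GRCm38.p6, 5′ to 3′ on the strand of the gene. Capitals mark, on either strand, a GC box (GGGCGG), a half-site of the cAMP response element (TGACG) or a FOXO motif (GTAAACA).
Hrk, chr5:118169614-118169763, + strand: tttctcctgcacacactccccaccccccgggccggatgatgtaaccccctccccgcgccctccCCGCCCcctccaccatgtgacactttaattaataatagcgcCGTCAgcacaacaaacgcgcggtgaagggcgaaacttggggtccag
Mcl1, chr3:95658571-95658720, + strand: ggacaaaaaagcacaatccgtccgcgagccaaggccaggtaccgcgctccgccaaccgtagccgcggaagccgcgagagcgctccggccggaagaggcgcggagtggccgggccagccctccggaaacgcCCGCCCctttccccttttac
Bid, chr6:120916825-120916974, - strand: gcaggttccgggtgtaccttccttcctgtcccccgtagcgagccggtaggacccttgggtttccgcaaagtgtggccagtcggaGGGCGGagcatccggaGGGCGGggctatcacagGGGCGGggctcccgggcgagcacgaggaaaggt
Bcl2l11, chr2:128125788-128125917, + strand: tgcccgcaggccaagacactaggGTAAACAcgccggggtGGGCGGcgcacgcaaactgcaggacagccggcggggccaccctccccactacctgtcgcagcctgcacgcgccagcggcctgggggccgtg

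The 10 members have 16 annotated starts, and the 250 bases before each were searched on both strands. A GC box was found before 8 of the 16 starts, where 32.7% of all 32851 starts had one. These were starts of Hrk, Mcl1, Bid and Bcl2l11, and of Bcl2, Bad and Bcl2l2, which were not called at their brightest probes. The FOXO motif stood before 1 of the 16 starts, 227 bases before the upstream start of Bcl2l11, and 3.17% of all starts had it. The half-site TGACG stood before 3 starts, of Bcl2, Bmf and Hrk (17.8% of all starts), and the CCAAT box (CCAAT) before 5, of Bad, Bcl2l11 and Bmf (33.8%). An AP-1 motif (TGANTCA), an E2F motif (TTTGGCGC or TTTCCCGC) and the full element TGACGTCA, which contains the half-site, were found before 0 of the 16, and in 6.75%, 1.3% and 1.55% of all starts. The p53 half-site stood before 1, a start of Bmf (7.13% of all starts). None of the motifs was found before the 3 starts of Bcl2l1. A match is a run of letters and does not show binding.

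Other genes of the pathway were counted from lists set by name, also with earlier results of these data known. Both p53-target members of the family that the array measures rose. Pmaip1, which encodes the BH3-only protein NOXA, had a mean log2 signal of 8.10 ± 0.16 in Prmt5-depleted and 5.51 ± 0.19 in control cells (SD, n = 4 each; log2 difference 2.60, adjusted p = 1.06e-07). Bbc3, which encodes PUMA, averaged 11.33 ± 0.06 in Prmt5-depleted and 9.68 ± 0.41 in control cells (SD, n = 4 each; log2 difference 1.65, adjusted p = 1.98e-05). With the mean of the tested probes of each gene, the log2 difference was 0.90 for Bbc3 and 2.31 for Pmaip1, and both calls held (adjusted p = 7.11e-05 and 1.50e-07). Among 7 tested genes of the remaining family and BH3-motif list, 0 were called higher and 2 lower, where 47.8% of all genes were called in either direction. Bcl2l12, a BCL2-like protein, fell 2.62-fold and Bok, a BAX-like effector, fell 1.83-fold (adjusted p = 4.42e-05 and 0.00206). Their median log2 difference was -0.19.

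A further list held caspases, their regulators and mitochondrial proteins. Of its 15 tested genes 5 were called higher, 2 lower and 8 neither, at a median log2 difference of -0.01. These 7 calls are a share close to the 47.8% of all genes called in either direction. Casp8, the protease that cleaves BID, rose 1.67-fold (adjusted p = 0.00075), and Apaf1, the scaffold of the apoptosome, rose by 0.58 on the log2 scale (adjusted p = 0.00101). Htra2, a mitochondrial protease released with cytochrome c, fell 2.41-fold, and Birc5, which encodes survivin and acts in mitosis, fell 1.86-fold (adjusted p = 1.62e-05 and 0.00161). The 7 calls of this list became 4 without Prmt5-depleted 3.

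Of 23 tested genes that act on BCL2 proteins from upstream, 10 were called higher, 1 lower and 12 neither, at a median log2 difference of 0.28. These 11 calls are again a share like the 47.8% of all genes called, and they became 8 without the 3 arrays that stood apart. Among the genes with the smallest adjusted p were kinases of the JNK group, of which Mapk8 rose 2.94-fold (adjusted p = 1.40e-06). Mapk10, a neuronal JNK detected on no control array, was at least 1.39-fold higher. Its adjusted p of 1.29e-05 belongs to the log2 difference of 1.08, taken without that bound. As Mapk10 entered the test only through Prmt5-depleted cells, its call is no separate support for a rise. Dynll2, the dynein light chain that holds BMF, rose 2.06-fold, and Ywhah, a 14-3-3 protein of the kind that binds BAD, rose 1.87-fold (adjusted p = 7.54e-05 and 7.99e-05). E2f1, a cell cycle transcription factor, fell 1.41-fold (adjusted p = 0.0443), a call lost in 9 of 20 alternative settings. The call ended without any 1 of the 4 Prmt5-depleted arrays (adjusted p = 0.0593, 0.11, 0.0668 and 0.0784 without arrays 1 to 4), without control 1 (adjusted p = 0.0996) and without control 4 (adjusted p = 0.0801). It also ended without the 3 arrays that stood apart (log2 difference -0.56, adjusted p = 0.108).

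Markers of cell state also differed between the genotypes. Over all 9001 genes tested, 23.7% were called higher and 24.1% lower. Of 16 tested neuron markers 15 rose and 0 fell, and their summed signal ran from 29226 to 32427 on Prmt5-depleted arrays and from 8910 to 10015 on control arrays. Gad2, Nefl, Neurod6 and Snap25, also listed as neuron markers, were detected on no array. Neurod1, among those that rose, was detected on no control array. It entered the test only through Prmt5-depleted cells, so its call is no separate support for a rise. Of 8 tested cell division markers 0 rose and 6 fell, with summed signal of 5708 to 8245 on Prmt5-depleted and 13899 to 17442 on control arrays. Bub1, on the same list, was detected on no array. Of 8 stem cell and radial glia markers 2 rose, a share close to that of all genes, and 4 fell. Their sums overlapped (32813 to 35919 in Prmt5-depleted, 33711 to 38466 in control cells). Oligodendrocyte lineage markers, of which Mog was detected on no array, gave 1 rise and 7 falls among 8 tested. Pdgfra and Gpr17, among the falls, were detected on no Prmt5-depleted array. They entered the test only through control cells, so their calls are no separate support for a fall. The sums of the oligodendrocyte list were 23458 to 27736 in Prmt5-depleted and 36516 to 40663 in control cells. The brightest genes weigh most in such sums, here Olig1 (mean log2 signal 14.61 in Prmt5-depleted and 15.08 in control cells). Median log2 differences were 2.01 for the neuron, -1.03 for the cell division, -0.63 for the stem cell and -1.48 for the oligodendrocyte list. The part of these shifts in the rises of Bcl2l1, Mcl1, Bid, Hrk and Bcl2l11 was not tested.

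Markers of other cell types gave fewer tested genes, again to be read beside the 23.7% of all genes called higher and 24.1% called lower. Of the 9 microglia and macrophage markers 1 was tested and not called, and C1qa, Itgam, Ptprc and Tyrobp were detected on no array. The tested endothelial marker, Esam, was called higher, but its genotypes overlapped and it was detected on 4 Prmt5-depleted and 2 control arrays. Both tested markers of mesenchymal cells and of erythroid cells rose. Of these, Lum, Hba-a1 and Hbb-y were detected on 4 Prmt5-depleted and 0 control arrays. They entered the test only through Prmt5-depleted cells, so their calls are no separate support for a rise. The summed mesenchymal signal was 484 to 834 on Prmt5-depleted and 102 to 116 on control arrays. The erythroid signal was 251 to 364 on Prmt5-depleted arrays and 57 to 60, at background, on control arrays. Cdh5, Pecam1, Tek, Col1a1, Pdgfrb and Alas2 were detected on no array. Of 4 tested astrocyte markers 1 rose, a share close to that of all genes. Their summed signal overlapped, at 7757 to 9059 on Prmt5-depleted and 6936 to 8681 on control arrays. Gfap and S100b were detected on no array. Of the markers named for the stem cells themselves, Pax6 was detected on no array. The part of the mesenchymal, endothelial and erythroid rises in the results on the members was not tested.

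For each called member the genes with the most similar profile were found by Pearson correlation over the 8 arrays. As the arrays form 2 genotype clusters, a high value says mainly that a gene separates them in the same direction. Bcl2l1 was closest to Gabarapl1 and Dpp10 (0.994 and 0.992), Mcl1 to Prokr1 and Dab2ip (0.992 and 0.98), Bcl2l11 to Nsf and Gfod1 (0.986 and 0.98), Bid to Mapkapk3 and Gpr22 (both 0.997) and Hrk to Dclk1 and Otx2 (0.995 and 0.994).

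**Figure D5:**
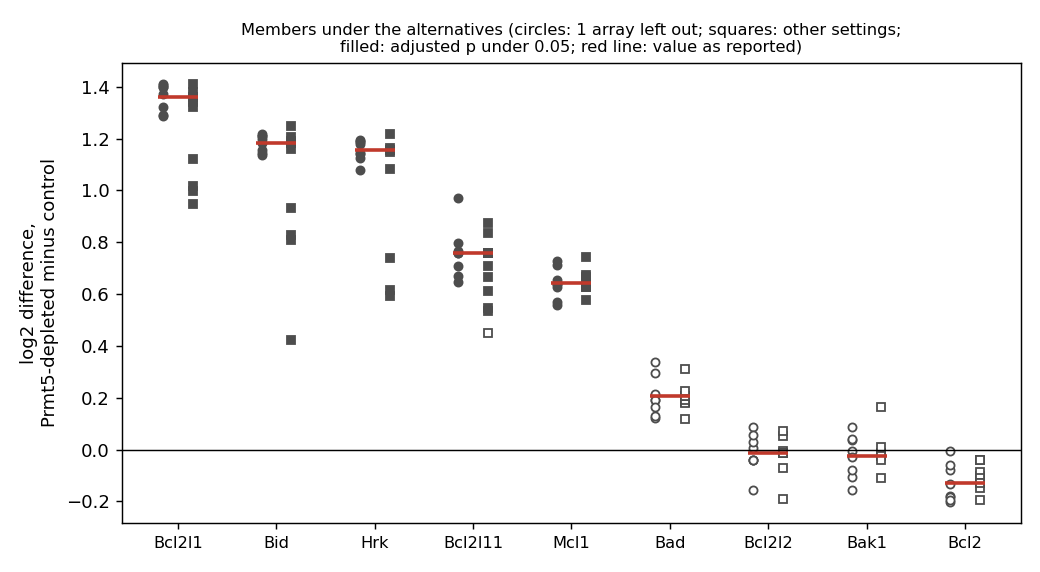
Log2 difference, Prmt5-depleted minus control (y axis), of each tested member (x axis) as reported (red line), with 1 array left out (circles) and under the other settings (squares); filled marks have an adjusted p under 0.05. Bcl2l1, Bid, Hrk and Mcl1 are filled throughout, and Bcl2l11 has 1 open mark, the fit without the 3 arrays that stood apart.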

How the data were processed

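The authors deposited intensity values, not normalized per the file header, for 25662 probes on 8 Illumina MouseRef-8 V2 arrays, and a detection p-value beside each intensity, per the file headers. The sources used here do not name the scanner software or say whether background was subtracted earlier. The authors' second table of intensity values equals the first after quantile normalization within 3.6e-12; it served as an alternative. Its scale is linear and uncentred, with column medians of 95.8, 95.7, 95.7 and 95.7 for Prmt5-depleted 1 to 4 and 95.8, 95.7, 95.7 and 95.8 for control 1 to 4. Arrays have 1 colour, so no direction arises. Every column was matched to its sample by name.

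Signals were background-corrected by normexp from the detection p-values, given an offset of 16, then quantile normalized and log2 transformed (neqc, limma 3.58.1, R 4.3.3). Probes with a detection p under 0.05 on at least 4 arrays (13196) were tested by lmFit and eBayes with genotype as the only term; tests were two-sided and adjusted by Benjamini-Hochberg over all tested probes. A gene was represented by its brightest tested probe (9001 genes). Values of probes not tested come from a fit of all probes. Lower bounds use the lowest detected signal of each array and do not take in the scatter among arrays. The fit was tested on simulated data. Quantile normalization hides a change shared by most genes, and the offset pulls dim differences towards 0.

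Probe names come from the platform annotation (23943 probes with 1 gene, 1719 with none, 0 with several), and 23927 matched a RefSeq table of GRCm38.p6 by Entrez ID, with 0 symbols changed. Promoters matched all 10 members. Probe sequences were not used here.

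Genes named are all member and Prmt5 probes, the p53-target members, and per pathway list up to 4 called genes with the smallest adjusted p plus up to 2 against the majority, and per called member the 2 genes of most similar profile. Members and lists were chosen with earlier results of these data known. Summed marker signals are sums of normalized linear signal over tested genes, so the brightest genes weigh most in them.

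Same-numbered arrays of the genotypes had correlations of deviations of -0.14, 0.24, -0.16 and -0.37 for numbers 1 to 4. The labels do not say whether equal numbers pair the samples, and these few values cannot decide it.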

Additional observations from a re-analysis of the deposited data

Results flagged for a closer look

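In 3 of 40 sets of 4 arrays (tested probes of the members and Prmt5, by genotype) 1 array lay far from the other 3, and chance alone gives about 1 in 20. Bcl2 at ILMN_2682162 was 5.14 on Prmt5-depleted 3, against 5.68 to 5.76 on the other depleted arrays; the call of this probe was lost without it. Prmt5 was low on control 1, at 10.02 for ILMN_2983093 (10.48 to 10.54 on the other control arrays) and at 9.64 for ILMN_2722455 (10.14 to 10.24 on the others).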

How the results depend on the processing

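Under 20 alternative settings, 2 of them chosen after the data were seen (both concern the second principal component), 4 to 5 member genes were called higher and 0 lower. The count of 4 arose in 2 settings: without control 4 and Prmt5-depleted 1 and 3, where Bcl2l11 lost its call, and with detection p under 0.01 on all 8 arrays, where 7 members were tested and Hrk was not among them. Leaving out 1 array at a time always gave 5 higher and 0 lower. The calls of Bcl2l1 (ILMN_2698430 and ILMN_2647885), Mcl1, Bid (ILMN_3161878), Hrk and Bcl2l11 (ILMN_2590638) held wherever they could be tested. Differences of dim probes were smaller with other background steps; for Bcl2l1 at ILMN_2647885 the log2 difference was 0.54 in the authors' matrix. For probes never called, the sign of Bcl2l2 and Bak1 turned in some settings. Over all genes 1593 to 2353 were called higher and 1830 to 2466 lower. Of the other lists, the p53-target members had 1 called gene in place of 2 with detection p under 0.01 on all 8 arrays, as Pmaip1 was then not tested. The list of caspases and mitochondrial proteins had 4 calls in place of 7 with the replicate block, and 4 to 6 when 1 array was left out. With the replicate block 5 member genes were higher, 1928 genes were higher and 1907 lower, Prmt5 kept its log2 difference of -2.70, and ILMN_2742557 of Bcl2l1 lost its call (adjusted p = 0.0706). The causes of the other changes were not tested. Signal close to background limits Bak1, Bmf, the second probe of Bid and the NM_177410 probes of Bcl2.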
